A study of Mus musculus with 27 samples.

Results

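The 35 genes described here copy DNA or prepare a cell to copy it: 6 subunits of the replicative helicase (Mcm2 to Mcm7), 8 genes of origin licensing and helicase activation (Mcm10, Cdc6, Cdt1, Cdc45, Gins1, Gins2, Gins3 and Gins4), the sliding clamp Pcna and 4 genes of its loader (Rfc2, Rfc3, Rfc4 and Rfc5), 6 genes of polymerases and of the joining of lagging-strand fragments (Pola1, Pold1, Pold2, Pole, Fen1 and Lig1), 4 of deoxynucleotide synthesis (Rrm1, Rrm2, Tk1 and Tyms), 3 of chromatin assembly and histone supply (Chaf1a, Chaf1b and Slbp), and 3 linked to E2F or MYC (E2f1, E2f2 and Cdca7). They were taken from a fixed list of symbols, and all 35 were found among the 30735 genes of the data. RNA was sequenced from 27 samples of mouse B cells purified by B220, a surface antigen of B cells. Of the 8 non-malignant samples, all from spleen, 4 were unstimulated, called resting here, and 4 were kept for 2 days with lipopolysaccharide (LPS), a molecule of bacterial cell walls and a mitogen of B cells. Each set of 4 held 1 sample from a wt mouse and 1 each from healthy cr, co and hv mice, which the labels describe as carrying a c-myc Igh transgene, so 3 of the 4 samples in either control set are transgenic. The other 19 samples were malignant B cells of transgenic mice, 7 of line hv, 7 of cr and 4 of co, plus 1 lung tumour whose labels give hv in one place and co in another. 12 lymphomas came from lung, 4 from mesenteric and 3 from peripheral lymph nodes. The labels give no ages, do not say what hv, cr and co stand for, and do not say whether samples came from separate mice, so each p-value measures the spread between these samples.

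A cell licenses its replication origins in G1, when ORC, Cdc6 and Cdt1 load rings of Mcm2 to Mcm7 onto DNA. At the start of S phase Mcm10, Cdc45 and the GINS complex turn these rings into moving helicases, and polymerases held by the Pcna clamp follow. Many genes of this machinery are targets of E2F factors, and resting B cells, which have left the cell cycle, are known to raise them when a mitogen drives them back into it. E2f2 differs from E2f1 in being known as a brake on the cycle in resting lymphocytes.

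The promoters are shown because most of these genes moved together. RefSeq promoter sequences (build GRCm38.p6) were at hand for 29 of the 35, and the 250 bases before the RefSeq start were searched on both strands. An E2F word (TTTCCCGC, TTTGGCGC, TTTCGCGC or TTTGCCGC, or its reverse complement) was found in 8 of the 29, or 27.6%, against 517 of 27025 promoters of all genes (1.91%) and 1 of 26 of a list of G2/M genes (3.85%). Mcm4, Gins1, Gins2, Gins4, Rfc2 and Pole were not searched. The 8 were Mcm5, Mcm6, Mcm7, Cdc6, Gins3, Rfc3, Pola1 and Cdca7. The letters CCAAT, bound by NF-Y, stood in 17 of the 29 (58.6%), in 34.5% of all promoters and in 80.8% of the G2/M promoters. The E-box CACGTG, which MYC can bind, stood in 2 of the 29 (6.9%) and in 6.05% of all promoters, and the CHR words TTTGAA and TTCGAA of late cycle genes in 6 (20.7%) and in 17.4%. The first 4 windows below hold E2F words, in Mcm6 3 of them. The windows of Mcm10 and E2f2 hold CCAAT only, and that of Cdt1 holds neither. Capitals mark E2F words and CCAAT on either strand, and each sequence runs 5′ to 3′ towards the gene. An E2F word can overlap the reverse complement of another, as in Mcm5 and Mcm6, and each is counted.
Mcm5: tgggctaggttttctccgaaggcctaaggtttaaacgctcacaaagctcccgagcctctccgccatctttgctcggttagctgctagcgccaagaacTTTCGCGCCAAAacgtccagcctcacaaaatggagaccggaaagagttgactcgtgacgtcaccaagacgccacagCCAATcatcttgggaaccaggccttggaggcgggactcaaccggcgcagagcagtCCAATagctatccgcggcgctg
Mcm6: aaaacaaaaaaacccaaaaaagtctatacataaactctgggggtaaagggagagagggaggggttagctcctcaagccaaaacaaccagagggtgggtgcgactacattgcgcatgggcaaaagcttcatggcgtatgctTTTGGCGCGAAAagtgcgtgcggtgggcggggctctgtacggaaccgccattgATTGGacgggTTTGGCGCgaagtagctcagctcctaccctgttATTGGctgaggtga
Pola1: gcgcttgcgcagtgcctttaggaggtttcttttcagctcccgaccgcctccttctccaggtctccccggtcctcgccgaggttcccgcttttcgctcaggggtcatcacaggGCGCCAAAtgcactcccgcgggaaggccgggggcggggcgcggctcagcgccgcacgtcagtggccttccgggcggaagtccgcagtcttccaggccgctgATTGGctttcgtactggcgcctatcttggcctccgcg
Gins3: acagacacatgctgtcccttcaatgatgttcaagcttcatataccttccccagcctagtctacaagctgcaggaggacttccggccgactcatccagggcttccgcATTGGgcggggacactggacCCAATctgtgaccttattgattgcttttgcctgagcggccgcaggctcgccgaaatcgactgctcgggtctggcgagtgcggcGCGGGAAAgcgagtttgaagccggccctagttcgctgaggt
Mcm10: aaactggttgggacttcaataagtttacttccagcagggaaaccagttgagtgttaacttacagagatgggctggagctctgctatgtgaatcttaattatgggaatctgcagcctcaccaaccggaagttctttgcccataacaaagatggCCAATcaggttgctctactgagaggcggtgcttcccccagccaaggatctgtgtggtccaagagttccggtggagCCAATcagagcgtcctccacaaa
E2f2: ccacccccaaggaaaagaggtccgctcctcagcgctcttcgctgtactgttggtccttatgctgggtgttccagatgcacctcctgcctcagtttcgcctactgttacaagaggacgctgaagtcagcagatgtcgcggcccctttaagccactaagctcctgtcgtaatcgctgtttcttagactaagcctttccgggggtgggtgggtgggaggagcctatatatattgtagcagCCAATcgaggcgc
Cdt1: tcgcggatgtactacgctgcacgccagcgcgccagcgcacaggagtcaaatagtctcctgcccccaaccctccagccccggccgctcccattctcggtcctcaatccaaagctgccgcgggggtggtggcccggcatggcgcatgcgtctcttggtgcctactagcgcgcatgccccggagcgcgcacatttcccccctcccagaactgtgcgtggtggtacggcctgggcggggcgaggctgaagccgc
These windows lie at chr8:75109259-75109508 on the + strand for Mcm5, chr1:128359706-128359955 on the - strand for Mcm6, chrX:93632156-93632405 on the - strand for Pola1, chr8:95633309-95633558 on the + strand for Gins3, chr2:5012792-5013041 on the - strand for Mcm10, chr4:136172024-136172273 on the + strand for E2f2 and chr8:122567765-122568014 on the + strand for Cdt1. The RefSeq starts behind the Mcm5, Mcm6 and E2f2 windows, and those of 4 other searched genes, were not found in GENCODE transcripts of the gene. The windows searched for Mcm7, Cdc6 and E2f1 lie wholly inside the gene as placed by the deposited data, after its first start. Of these, Mcm7 and Cdc6 were counted as holding an E2F word. A match describes letters only, and its absence says nothing about the factor.

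The values are TPM, a share of the transcripts of a sample, summed over a gene's transcripts. TPM is corrected for transcript length, so levels of different genes can be compared, and fold changes are given as differences of log2(TPM + 1). Depth, read from the steps of the values, was 11531400 to 32032600 read pairs per sample. A gene was called changed where the adjusted p of limma, a linear model over all tested genes with Benjamini-Hochberg adjustment, was under 0.05. All 35 genes passed the filter on low values in the 3 main comparisons. Several libraries stood apart before any comparison. The repeat-like gene Gm10800 took over 1% of the TPM in 4 libraries, namely 18.58% in LPS-treated cr cells, 3.646% in resting wt cells, 2.696% in LPS-treated hv cells and 3.078% in the mesenteric cr lymphoma T6, and Gm20594, at 10.92% or more in every library, took 34.26% in the mesenteric cr lymphoma T35. B-cell markers summed to 2409 TPM or more in all 27 samples, with none of the 10 at 0 throughout a group, and 8 of the 10 were called lower after LPS and 4 lower in lymphomas, both against resting samples. In contrast to these markers, 12 erythroid markers summed to 11780 to 112700 TPM in resting, 177.3 to 2221 in LPS and 17.8 to 1136 in lymphoma samples.

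Nearly the whole machinery was higher after LPS. The labels name no sample kept for 2 days without LPS, so LPS and time in culture cannot be told apart. Of the 35 genes, 32 were called higher after LPS, where 25.2% of the 11999 genes tested were, and 1 was called lower, E2f2, where 33.0% of all genes were. Cdt1 and Pold1 were not called. The median log2 fold change of the 35 was 1.93, and that of all genes was -0.16. In the same 32 genes every LPS sample lay above every resting sample, as it did in 22.8% of all genes, and all 32 were higher in each of the 4 genotypes, as were 29.3% of all genes. With median-of-ratios scaling, which moved the median of all genes by more than 0.1 to -0.03, 32 were still called higher and E2f2 lost its call (adjusted p = 0.0586).

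**Figure D1:**
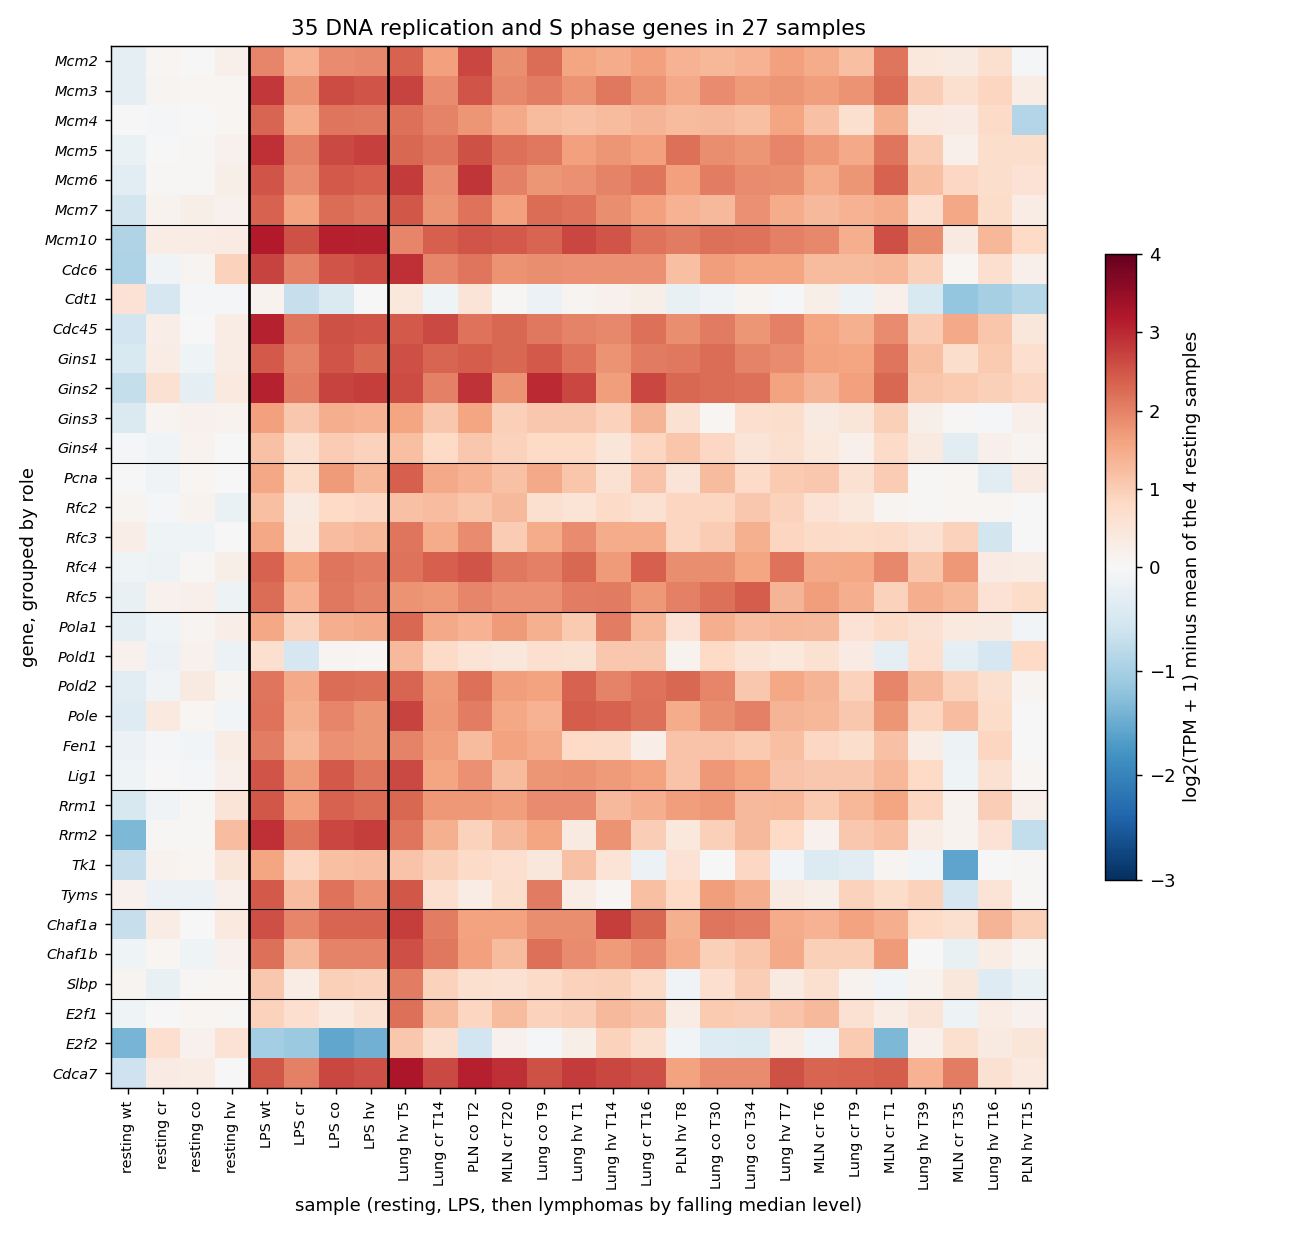
Level of each of the 35 genes (rows, grouped by role) in each of the 27 samples (columns), as log2(TPM + 1) minus the mean of the 4 resting samples, with red above and blue below that mean. The 4 LPS columns are red in all rows but Cdt1, Pold1 and E2f2, and the lymphoma columns grade from the hv lung lymphoma T5 to the hv peripheral node lymphoma T15.

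The helicase rose as a unit. Mcm5 was at 22.4, 25.8, 26.5 and 29.3 TPM in the wt, cr, co and hv resting samples and at 201.8, 107, 167.3 and 176 TPM in the LPS samples of the same genotypes. The LPS samples did not overlap the resting ones, and the cr sample was the lowest of them. The log2 fold change of Mcm5 was 2.57 ± 0.21 (SE, adjusted p = 1.5e-06). Those of Mcm3, Mcm6, Mcm7, Mcm4 and Mcm2 were 2.44, 2.32, 2.08, 2.01 and 1.80. Summed over Mcm2 to Mcm7, the level was 164.2 to 229.8 TPM in resting and 685.3 to 1189 TPM in LPS samples.

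Of the 8 licensing and activation genes 7 were called higher, and this group held the largest rise of all. Mcm10, which helps to fire the loaded helicase, stood at 2.58 TPM in the wt resting sample and at 7.22, 7.25 and 7.44 TPM in cr, co and hv. After LPS it reached 59.97, 38.3, 56.6 and 56.2 TPM in that order of genotypes, a log2 fold change of 2.98 ± 0.28 (SE, adjusted p = 8.0e-06). The wt sample thus started lowest and ended highest. Gins2, a subunit of the GINS complex, went from 2.47, 7.74, 3.70 and 6.46 TPM (wt, cr, co, hv) to 47.2, 22.6, 36.2 and 37.6 TPM, a log2 fold change of 2.65 ± 0.31 (SE, adjusted p = 4.6e-05). Cdc45, their partner in the helicase, went from 4.75, 9.24, 7.497 and 9.55 to 70.9, 36.9, 48.9 and 47.4 TPM, and Cdc6, the loader of MCM rings, from 3.38, 6.79, 8.06 and 14.8 to 53.8, 32.9, 46.6 and 49.9 TPM. In log2 fold change Cdc45 rose by 2.57 ± 0.24 (SE) and Cdc6 by 2.46 ± 0.34 (SE), with adjusted p of 4.2e-06 and 2.1e-04. Of the other GINS subunits, Gins1 rose by 2.30, Gins3 by 1.39 and Gins4 by 0.94. In all 7 of these genes the LPS samples lay above all resting samples.

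Cdt1, the partner of Cdc6 in loading, did not share this rise. It was at 39.8, 17.9, 25.1 and 25.5 TPM in the wt, cr, co and hv resting samples and at 28.9, 15.9, 19.1 and 26.4 TPM after LPS. The groups overlapped, and the log2 fold change was -0.24 (95% interval -0.78 to 0.31, adjusted p = 0.44). The wt sample was the highest and the cr sample the lowest of 4 in both groups. Cdt1 protein is known to be destroyed in S phase, which RNA does not show.

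All 5 genes of the clamp and its loader were called higher, by 0.80 (Rfc2), 1.13 (Rfc3), 1.32 (Pcna), 1.92 (Rfc5) and 2.03 (Rfc4) in log2 fold change. Pcna had the highest mean level of the 35 genes in each group, 211.9 ± 10.8 TPM (SD, n = 4) in resting and 548.7 ± 147 TPM (SD, n = 4) in LPS samples. Of the 6 polymerase and fragment-joining genes 5 were called, with log2 fold changes of 2.21 for Lig1 (the ligase), 2.03 for Pold2, 1.83 for Pole, 1.74 for Fen1 (the flap nuclease) and 1.36 for Pola1. Pold1, the catalytic subunit of polymerase delta, was the exception. Its levels of 62.1, 48.5, 62.3 and 48.1 TPM (wt, cr, co, hv) became 86.4, 38.6, 59.3 and 58.4 TPM, higher in wt and hv and lower in cr and co, with a log2 fold change of 0.09 (95% interval -0.41 to 0.58, adjusted p = 0.758). Pold2, which encodes the accessory subunit of the same polymerase, was at 19.9 ± 4.35 TPM (SD, n = 4) against 55.2 ± 8.03 TPM for Pold1 in resting samples and at 84.6 ± 18 TPM against 60.7 ± 19.6 TPM in LPS samples.

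All 4 genes of deoxynucleotide synthesis were called higher. Rrm2, the small subunit of ribonucleotide reductase that is made in S phase, was at 10.7, 29.7, 29.6 and 69.2 TPM in the wt, cr, co and hv resting samples, the widest spread on a log scale of any of the genes at rest. After LPS it was at 225.5, 130.3, 188.5 and 199.1 TPM, a log2 fold change of 2.63 ± 0.49 (SE, adjusted p = 0.0018). Rrm1, the large subunit, rose by 2.17, thymidylate synthase (Tyms) by 1.93 and thymidine kinase (Tk1) by 1.22. Among the chromatin genes Chaf1a and Chaf1b, which place histones behind the fork, rose by 2.29 and 1.86, and Slbp, which binds histone mRNA, by 0.81.

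The E2F genes parted. Cdca7, a chromatin gene known as a target of MYC and E2F, rose by 2.44 in log2 fold change, and E2f1, the gene with the lowest mean level of the 35 in each group, rose by 0.65 ± 0.19 (SE, adjusted p = 0.0102) from 2.84 ± 0.26 to 5.06 ± 0.96 TPM (SD, n = 4 each). E2f2 was at 26.8, 115.9, 80.9 and 107.2 TPM in the wt, cr, co and hv resting samples and at 34.9, 32.7, 23.9 and 26.2 TPM after LPS. All LPS samples lay below the 3 transgenic resting samples, but the wt resting sample lay among them, and E2f2 was lower after LPS in cr, co and hv and higher in wt. The log2 fold change was -1.28 ± 0.43 (SE, adjusted p = 0.0282). It was -1.75 with an adjusted p of 4.8e-07 without the wt resting sample, and the call was lost without any 1 of 6 other samples, the wt, co or hv LPS sample or the cr, co or hv resting sample (adjusted p = 0.052 to 0.079). Both E2f2 transcripts in the table had this pattern: ENSMUST00000061721 was at 14.7 to 66.5 TPM in resting and 13.2 to 19.4 in LPS samples, and the shorter ENSMUST00000149750 at 12.0 to 55.0 and 10.6 to 16.3.

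**Figure D2:**
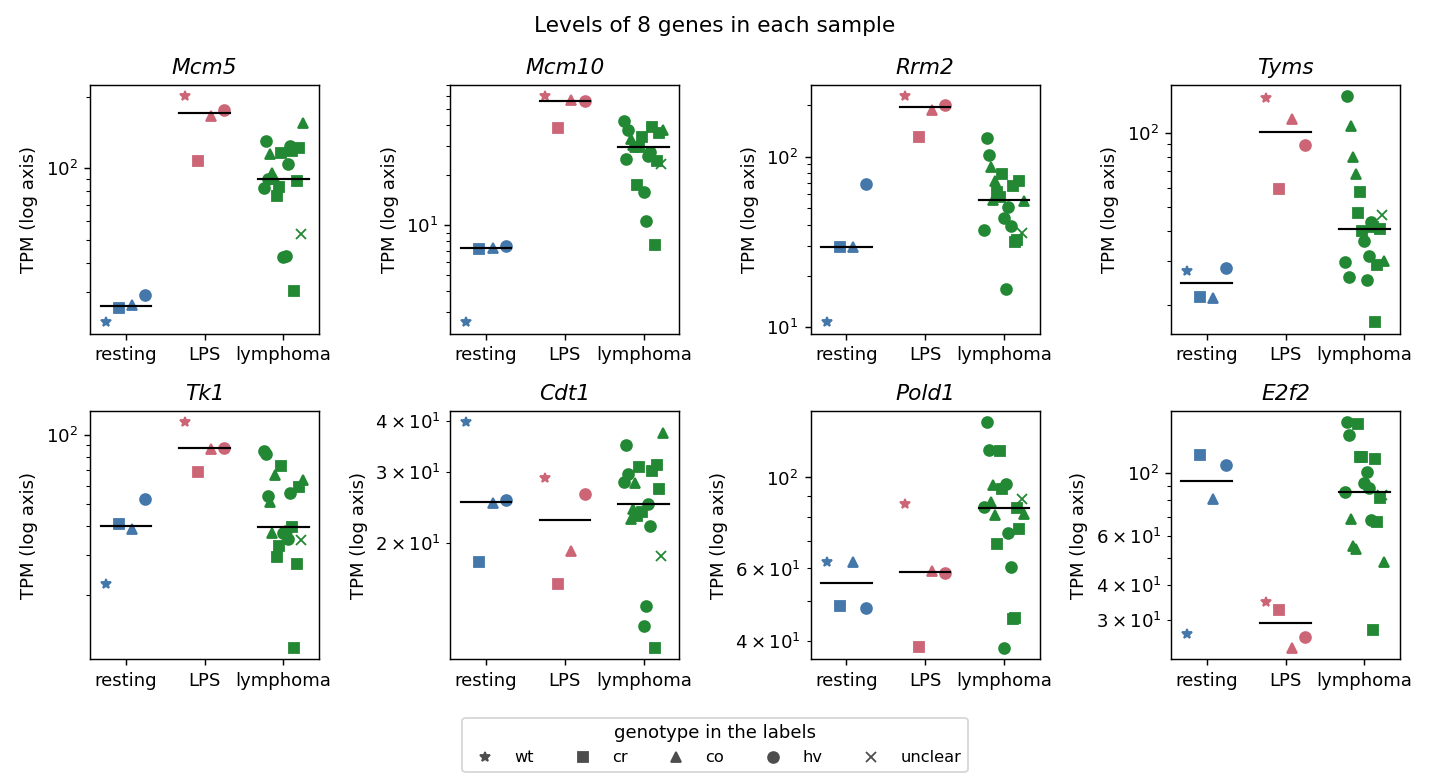
TPM on a log axis of 8 genes in each sample, by group, with the marker shape giving the genotype and the bar the group's median. The median lymphoma lies between the control groups for Mcm5 and Mcm10 and inside the resting range for Rrm2 and Tk1 (55.8 and 39.6 TPM), Cdt1 and Pold1 overlap in all groups, and E2f2 is low in the 4 LPS samples, the wt resting sample and 1 lymphoma.

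The wt resting sample was the lowest of the 4 in 25 of the 35 genes, as it was in 19.2% of all genes, and the rise after LPS was largest in wt for 31 of the 35, as it was for 27.1% of all genes. That sample had 1.148% of its TPM in haemoglobin genes, against 10.86% in cr, 5.575% in co and 10.99% in hv. It also had the lowest median log2 level of 30 G2/M genes, 2.95, against 4.10 in cr, 3.87 in co and 4.81 in hv, while the median of the 35 genes differed less, 4.29 to 4.59. E2f2, which is also known in maturing red cells, had its lowest resting value in wt too. All 12 erythroid markers were called lower after LPS, none at 0 in all samples of a group. So were 7 of 9 tested macrophage markers, whose sum was 161 to 908.3 TPM in resting and 5.57 to 54.2 TPM in LPS samples and of which Vsig4 was at 0 in all LPS samples. NK cell markers (4 of 4 tested) and neutrophil markers (2 of 2 tested) were lower too, and 4 of 6 plasma cell markers were higher after LPS, with a sum of 274 to 482.2 TPM in resting and 564.9 to 714.6 TPM in LPS samples. The part of any of these lists in the results was not tested. In bulk samples fewer cells of a type and less RNA per cell cannot be told apart. The cr LPS sample was the lowest of its group in 33 of the 35 genes, but so it was in 67.8% of all genes, and the Gm10800 share given above belongs to it. Without the libraries above 1% Gm10800, a choice made after the data were seen, 31 genes were higher and 1 lower.

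Other genes of the same pathways, from lists that hold none of the 35, moved with them. Of 19 licensing and initiation genes 15 were called higher after LPS and none lower (median 1.10), led by Tipin (2.86), a fork protection factor, Gmnn (2.30), the inhibitor of Cdt1, the helicase Recql4 (2.27) and Orc6 (2.15) of the origin recognition complex. Of 20 polymerase and fork genes 17 were higher and 1 lower (median 1.45), the higher ones led by the nuclease Exo1 (3.55), Pole2 (2.26), Rnaseh2b (1.75) and Pola2 (1.74), and the lower one being Pold4 (-1.22), the smallest subunit of polymerase delta. All 10 chromatin genes were higher (median 1.53), with Hells at 3.07, the methylation cofactor Uhrf1 at 2.79, the histone chaperones Nasp at 2.18 and Asf1b at 1.70. Of 10 deoxynucleotide genes 6 were higher and 3 lower (median 1.47). The higher ones were led by Dut (3.15), which removes dUTP, Shmt1 (3.10) and Dctpp1 (2.68), enzymes of S phase supply or of its clean-up. The lower ones were Tk2 (-2.30), the mitochondrial thymidine kinase, Samhd1 (-1.87), which degrades deoxynucleotides, and Rrm2b (-0.83), the reductase subunit known from resting cells. Among 20 E2F and G1/S genes 14 were higher and 3 lower (median 1.14). Mybl2 (2.77), Tfdp1 (2.59), an E2F partner, and Ccne1 (2.25), cyclin E1, led the higher ones, and the lower ones were Tfdp2 (-3.26), another E2F partner, and the pocket proteins Rb1 (-1.36) and Rbl2 (-1.02), which hold E2F in check. Tfdp2 spread widely among the resting samples, from 28.1 to 186.7 TPM, and was at 6.97 to 8.92 TPM in LPS samples. The G2/M list, genes of the later phases of the cycle, had 25 of 30 higher and none lower (median 1.94), with Cdc20 (3.02), Ccnb1 (2.79), Plk1 (2.79) and Bub1 (2.78) ahead. In this list Mki67 was at 33.5 to 259.6 TPM in resting and 145.4 to 202.1 TPM in LPS samples. Cenpf was at 4.39 to 28.5 and 13.4 to 21.7 TPM. For both, the highest resting sample lay above all LPS samples. Resting here means unstimulated, and whether these samples held cycling cells was not tested.

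The lymphomas also carried the machinery above the resting level, less completely and with more spread. This comparison and the one with LPS share samples with the first (the resting or the LPS set), so they are not independent of it. Of the 35 genes 28 were called higher in the 19 lymphomas than in the 4 resting samples, where 14.5% of the 13239 genes tested were, and none was called lower, where 17.4% were (limma; at an unadjusted p under 0.05, 31 of the 35 differed, against 43.0% of all genes). The median log2 fold change was 1.29, against -0.06 for all genes. In 12 of the 35 every lymphoma lay above every resting sample, as in 4.00% of all genes, and in 31 the median lymphoma did, which was not counted over all genes. Of all genes 1921 were called higher and 2308 lower, and with TPM rescaled without repeat-like and haemoglobin genes 1508 and 3234, 25 of the 35 being among the higher ones.

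**Figure D3:**
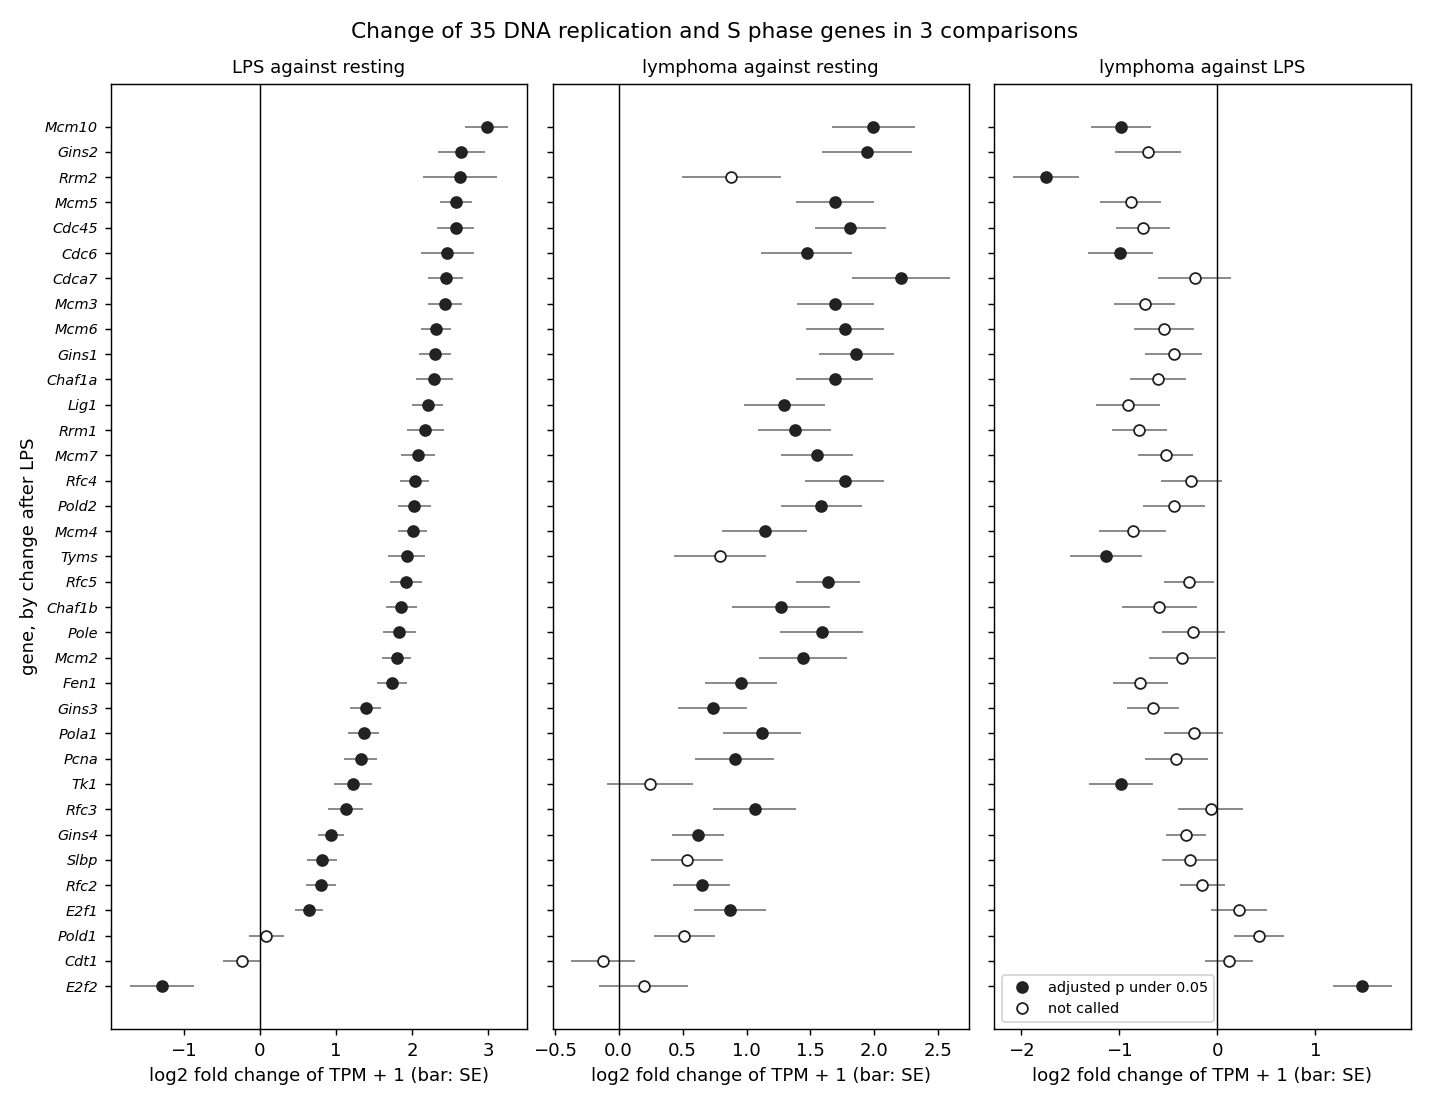
Log2 fold change of TPM + 1 (point) with its SE (bar) of the 35 genes in LPS against resting (left), lymphoma against resting (middle) and lymphoma against LPS (right), sorted by the change after LPS, with filled points for adjusted p under 0.05. Most genes lie right of 0 in the first pair of panels (32 and 28 called higher) and left of 0 in the third, where 31 of 35 are negative and 5 are called lower.

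The largest difference from resting cells was that of Cdca7, with a log2 fold change of 2.21 ± 0.38 (SE, adjusted p = 9.8e-05). It stood at 11.9 to 23.7 TPM in resting samples and at 24.9, 105.1 and 184.5 TPM in the lowest, median and highest lymphoma. Mcm10 followed at 1.99 ± 0.32 (SE), with lymphomas at 7.62, 29.4 and 42.3 TPM, all above the resting range. Gins2, at 9.16, 22.2 and 44.2 TPM in lymphomas, differed by 1.94, Gins1 by 1.86 and Cdc45, at 10.8, 31.4 and 52.6 TPM, by 1.81. All 6 helicase genes were called, between 1.14 (Mcm4) and 1.77 (Mcm6). Mcm5 was at 30.2, 90.2 and 155.4 TPM in the lowest, median and highest lymphoma, and the sum of Mcm2 to Mcm7 was 250.6 to 1203 TPM, with a median of 683.9. The clamp and loader genes were all called too, from 0.65 (Rfc2) and 0.91 (Pcna) through 1.06 (Rfc3) and 1.64 (Rfc5) to 1.77 (Rfc4). Of the polymerase group Pole (1.59), Pold2 (1.59), Lig1 (1.29), Pola1 (1.12) and Fen1 (0.95) were called, and Chaf1a (1.69), Chaf1b (1.27), Cdc6 (1.47), Gins3 (0.73), Gins4 (0.62) and E2f1 (0.87) completed the list with Rrm1 (1.38), Mcm2 (1.44), Mcm3 (1.69) and Mcm7 (1.55).

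The 7 genes that missed the threshold include 3 of the 4 genes of deoxynucleotide synthesis. Rrm1 was called (1.38 ± 0.28, SE), but Rrm2 was at 16.8, 55.8 and 129.1 TPM in the lowest, median and highest lymphoma, around the 69.2 TPM of the hv resting sample, and differed by 0.88 (95% interval 0.08 to 1.68, adjusted p = 0.0831). Only 6 of 19 lymphomas exceeded all 4 resting samples. Tk1 was at 22.4, 40.8, 38.9 and 52.3 TPM in the wt, cr, co and hv resting samples and at 11.8, 39.6 and 85.2 TPM in lymphomas, a difference of 0.24 (95% interval -0.45 to 0.93, adjusted p = 0.602). Tyms was at 27.3, 21.6, 21.3 and 28.1 TPM in resting samples and at 16.9, 40.6 and 141.6 TPM in lymphomas (0.79, 95% interval 0.05 to 1.53, adjusted p = 0.0924). For Tyms 16 of 19 lymphomas lay above all resting samples, and 4 of them reached the range of the LPS samples, but the difference missed the threshold.

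The other 4 were Slbp, Pold1, E2f2 and Cdt1. Slbp, at 99.8, 78.6, 94.9 and 98.4 TPM in the wt, cr, co and hv resting samples, was at 70.8, 143.5 and 385.6 TPM in lymphomas (0.54, 95% interval -0.04 to 1.11, adjusted p = 0.142). Pold1, at 38.4, 84.1 and 136.6 TPM in lymphomas, differed by 0.51 (95% interval 0.02 to 1.01, adjusted p = 0.102), with 15 of 19 above all resting samples. E2f2 spanned 27.7, 85.6 and 152.2 TPM in lymphomas, about the range of the resting samples, with a difference of 0.20 (95% interval -0.52 to 0.92, adjusted p = 0.695). Cdt1, at 11.01, 25 and 37.3 TPM, had no lymphoma above the highest resting sample and differed by -0.12 (95% interval -0.63 to 0.39, adjusted p = 0.74).

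How many genes passed depended on the lymphomas chosen. 9 lymphomas, all from lung, have sample names written as one word and 10 have names with separators, and this style, called joined and separated here, is the nearest thing to a batch in the labels. Against resting samples, 32 of the 35 were called higher with the joined-name lymphomas only (median 1.66) and 19 with the separated-name ones only (median 0.93). Of all genes 19.5% and 9.75% were called higher in these fits, with medians of -0.003 and -0.141. Of the 35 genes 34 had a higher median in the joined-name set, which was not counted over all genes. Style and site cannot be told apart for lymph nodes, all of which are in the separated set, and the difference between the styles was not tested. With lung lymphomas only, 31 were called. Without 1 resting sample in turn the count was 22 to 26, the lowest without wt, and without libraries above 1% Gm10800 it was 21. Higher calls over all genes fell too, from 1921 to between 1360 and 1578 without 1 resting sample. They numbered 1397 of 13011 without those libraries.

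Members of the same lists of other genes were called in lymphomas against resting samples, in most cases as higher. Of the licensing list 11 of 19 were called higher and none lower (median 0.78), with Tipin (1.71), Recql4 (1.67), Gmnn (1.58) and Orc6 (1.40) again in front. Of the fork list 14 of 20 were higher and none lower (median 1.12), led by Exo1 (2.63), and of the chromatin list 8 of 10 (median 1.08), led by Uhrf1 (2.00). The deoxynucleotide list had 5 higher and 2 lower (median 0.97), with Shmt1 at 1.94 and Dctpp1 at 1.84, and with Samhd1 at -1.15 and Tk2 at -1.03. The E2F and G1/S list had 12 higher and 1 lower (median 0.88), Tfdp1 at 2.02 and Tfdp2 at -2.29. In G2/M 19 of 30 were higher and none lower (median 1.13), with Bub1b at 1.96 and Kif20a at 1.92. The 12 erythroid markers and 7 of 9 tested macrophage markers were lower in lymphomas than in resting samples, and their part in these results was not tested.

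Set directly against LPS-stimulated cells, most of the 35 genes had a lower value in the lymphomas, though few passed the test. Of the 35 genes 5 were called lower, where 8.56% of the 12880 genes tested were, and 1 was called higher, where 5.27% were. The median log2 fold change was -0.53, against 0.03 for all genes, and 31 of 35 were negative. In 17 genes the median lymphoma lay within the range of the 4 LPS samples, and in 16 it lay below the lowest of them. These positions and the signs of the differences were not counted over all genes. At an unadjusted p under 0.05, limma gave 16 of the 35, against 28.1% of all genes. The count of lower calls rested on single samples: leaving out LPS-treated wt, co or hv cells gave 1, and leaving out those of cr gave 4. Lower calls over all genes fell too, from 1103 to between 510 and 1067 without 1 LPS sample. The count among the 35 was 3 with joined-name and 9 with separated-name lymphomas only, where 8.52% and 7.35% of all genes were called lower.

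Rrm2 held the largest difference. All 19 lymphomas lay below the lowest LPS sample, the highest lymphoma at 129.1 TPM and the lowest LPS sample at 130.3 TPM, and 2.05% of all genes were separated in this way. The log2 fold change was -1.75 ± 0.33 (SE, adjusted p = 8.1e-04), and it was the only one of the 6 calls made in all 19 alternative analyses. Tyms was at 139, 59.1, 113.9 and 89.2 TPM in the wt, cr, co and hv LPS samples, and 15 of 19 lymphomas lay below all of them (-1.14 ± 0.37, SE, adjusted p = 0.0414). Tk1, at 113.7, 68.7, 86.9 and 87.5 TPM after LPS, was higher than in 16 of 19 lymphomas (-0.98 ± 0.33, SE, adjusted p = 0.0448). Rrm1 missed the threshold at -0.80 (adjusted p = 0.0578), so 3 of the 4 genes of deoxynucleotide synthesis were called lower, and the median difference of the 4 was -1.06. Mcm10 and Cdc6 were the other genes called lower, at -0.99 ± 0.31 and -0.99 ± 0.33 (SE, adjusted p = 0.0328 and 0.0458), each with 17 of 19 lymphomas below all LPS samples. In Cdc6 the lowest, median and highest lymphoma were at 7.85, 23.9 and 62.5 TPM. Tyms, Tk1, Mcm10 and Cdc6 each lost the call without the wt, the co or the hv LPS sample (adjusted p = 0.104 to 0.161), and Tk1 and Cdc6 also without the cr one (0.0585 and 0.0513).

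For the helicase no subunit was called. The differences ran from -0.36 (Mcm2, adjusted p = 0.531) to -0.88 (Mcm5, adjusted p = 0.0598), and 14 of 19 lymphomas lay below all LPS samples for Mcm4 but 6 of 19 for Mcm2. Pcna and its loader lay between -0.42 (Pcna) and -0.07 (Rfc3), and Pold1 (0.43), E2f1 (0.22) and Cdt1 (0.12) had positive values that missed the threshold.

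E2f2 was the one gene called higher in lymphomas than after LPS. The LPS samples were at 23.9 to 34.9 TPM, and 18 of 19 lymphomas lay above all 4, the exception being the mesenteric cr lymphoma T1 at 27.7 TPM. The log2 fold change was 1.48 ± 0.30 (SE, adjusted p = 0.00148). It was lost without the libraries above 1% Gm10800 (1.504, adjusted p = 0.0567), a choice made after the data were seen, and kept there with median-of-ratios scaling (adjusted p = 0.0457). The median lymphoma, at 85.6 TPM, lay inside the range of the 3 transgenic resting samples, 80.9 to 115.9 TPM.

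In the lists of other genes few passed against LPS. Lower in lymphomas were Orc1 (-1.46) and Tipin (-1.15) among 19 licensing genes, Dna2 (-1.10) and Pole2 (-0.91) among 20 fork genes, Hells (-1.20) and Nasp (-1.18) among 10 chromatin genes, Dut (-1.45) and Shmt1 (-1.15) among 10 deoxynucleotide genes, and Mybl2 (-1.30), the phosphatase Cdc25a (-0.96) and E2f4 (-0.85) among 20 E2F and G1/S genes. Higher were Tk2 (1.27) and Samhd1 (0.72), which had been lower after LPS. Of the G2/M list 9 of 30 were lower and none higher (median -0.61), with Aurka (-1.56) and Plk1 (-1.52) ahead. Plasma cell markers (3 of 6, median -1.31) and erythroid markers (6 of 8 tested, median -2.23) were also lower in lymphomas than after LPS. The plasma cell sum was 131.7 to 635.8 TPM in lymphomas and 564.9 to 714.6 TPM after LPS, and the erythroid sums are given above. Macrophage markers moved the other way, 4 of 9 tested being higher, with sums of 11.8 to 312.4 TPM against 5.57 to 54.2 TPM. The part of these markers in the differences was not tested.

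**Figure D4:**
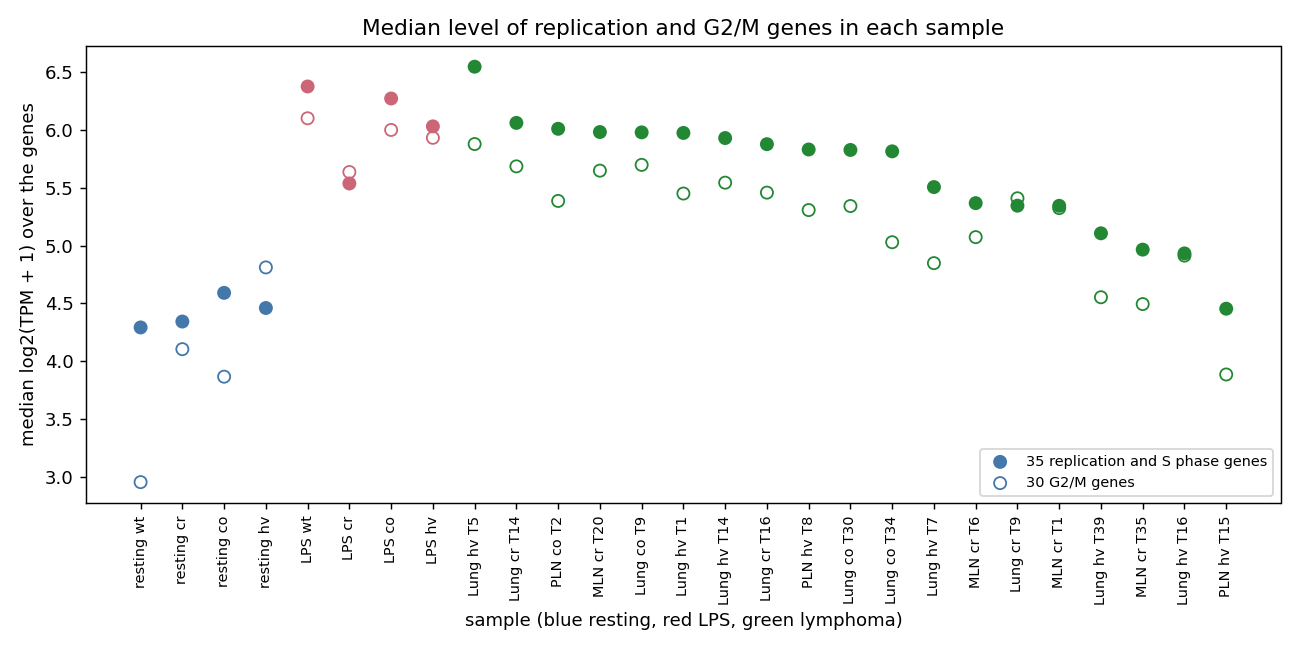
Median log2(TPM + 1) over the 35 genes (filled) and over 30 G2/M genes (open) in each sample, with resting in blue, LPS in red and lymphomas in green sorted by the filled points. Lymphomas run from 6.547 (hv lung T5) to 4.454 (hv peripheral node T15), the latter inside the resting range of 4.292 to 4.591, and the open points are lowest in the wt resting sample, 2.954.

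Among the 19 lymphomas the spread was wide. The standard deviation of log2(TPM + 1) was larger in lymphomas than in both control groups for 32 of the 35 genes, the exceptions having a larger one in resting samples. This was not counted over all genes, so it cannot be called particular to the 35. The lymphomas come from several lines and sites, and the controls from spleen alone. The median level of the 35 genes was 5.83 over the lymphomas, with a range of 4.45 to 6.55, and 5.54 to 6.38 in LPS samples. The hv lung lymphoma T5 was among the 3 highest for 31 of the 35 genes, as it was for 35.1% of all genes, and the co peripheral node lymphoma T2 for 16 (11.5% of all genes). At the other end, the hv peripheral node lymphoma T15 was among the 3 lowest for 30 genes (19.2% of all genes), the mesenteric cr lymphoma T35 for 25 (33.1%) and the hv lung lymphoma T16 for 23 (14.5%). The median of the G2/M genes was 3.89 in T15 and 4.49 in T35, against 5.34 over all lymphomas, and 34.26% of the TPM of T35 was Gm20594. These last 3 lymphomas have separated names. The hv lymphomas T16 and T15 had the highest B-cell marker sums of the lymphomas, 10450 and 9259 TPM, within the resting range of 7329 to 13580 TPM. The hv T16 also had the highest macrophage sum, 312.4 TPM, while T15 had the highest sum of 6 lung epithelium markers, 511.3 TPM, of which Krt18 made 510.5 TPM and 4 were at 0. The part of these markers in the low levels was not tested.

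The levels of the 6 helicase subunits, which are built in equal number into the ring, were correlated between tumours. Over the 19 lymphomas all 15 pairs of Mcm2 to Mcm7 had an adjusted p under 0.05 in a permutation test, with Pearson's r from 0.647 (Mcm5 with Mcm7) to 0.961 (Mcm3 with Mcm6), a median of 0.867 and an adjusted p of at most 0.0029 over the 15 pairs. Of all pairs of 13238 tested genes, 3.77% had an r of 0.647 or more and 0.0827% one of 0.867 or more. Spearman's rho was 0.505 to 0.893, with an adjusted p of at most 0.029. Leaving out the 2 lymphomas farthest from the median of the first gene of a pair gave r of 0.554 to 0.943. Within the 9 joined-name lymphomas r was 0.432 to 0.843, and within the 10 separated-name ones 0.66 to 0.99. The points of a pair share a library and its scaling, and with median-of-ratios scaling r was 0.699 to 0.964. Pairs of the other replication genes were not examined, so the correlation cannot be called particular to the helicase.

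Among the 35 genes no difference between lines or sites passed the test. In a fit of 18 lymphomas with both line and site, none of the 35 genes was called in hv against cr, co against hv, co against cr, mesenteric node against lung or peripheral node against lung, where 0, 0, 0, 0 and 2 of 12480 genes were (0%, 0%, 0%, 0% and 0.0160%). At an unadjusted p under 0.05 limma gave 0, 1, 1, 1 and 2 of the 35, and 1.36%, 3.15%, 2.70%, 1.67% and 5.03% of all genes. The 3 smallest p-values all belonged to E2f2. Its log2 difference was -1.06 (95% interval -1.83 to -0.28, unadjusted limma p = 0.0103, adjusted p = 0.998) in co against cr, -0.84 (-1.46 to -0.22, unadjusted limma p = 0.0113, adjusted p = 1.0) in co against hv, and -0.95 (-1.70 to -0.19, unadjusted limma p = 0.017, adjusted p = 1.0) in mesenteric node against lung. Median E2f2 levels were 54.5 TPM in co, 91.95 in hv and 112.1 in cr. For the other genes the intervals were wide: over the 35, the 95% limits of the log2 difference of co against hv reached from -1.46 to 1.56, and those of mesenteric node against lung from -1.87 to 1.08. In mesenteric node against lung all 35 differences were negative, with a median of -0.26 against -0.13 for all genes, and in co against hv 34 of 35 were positive, with a median of 0.32 against -0.06, but no gene among them passed the test. With median-of-ratios scaling these medians were -0.10 and 0.41. The signs of the differences were not counted over all genes. The mesenteric tumours are all of line cr and all have separated names, while the cr lung tumours all have joined names. Mesenteric site and name style therefore cannot be told apart. Most co lymphomas have joined names and most hv lymphomas separated ones, and name style was not in the fit.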

How the data were processed

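RNA from B220-purified B cells was sequenced with rRNA depletion and stranded paired-end libraries, per the labels' protocols, and quantified by the authors with kallisto 0.43 on mm10 (GRCm38), per the submitters' processing notes. The authors' deposited table holds TPM for 88198 transcripts in 27 samples. Which transcript annotation and strand setting were used is not stated in the labels. TPM was summed over the transcripts of each of 30735 genes. Depth came from the smallest steps of TPM times effective length, another column deposited by the authors. Between 61.03% and 76.37% of low values were then whole within 0.02, so no count test was run. Depth was lowest among lymphomas and limits genes of low TPM.

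A gene entered a test where 4 or more samples had TPM of 1 or higher. The test was limma 3.58.1 in R 4.3.3, with its trend and robust options, on log2 values with a pseudocount of 1, and p was adjusted after Benjamini and Hochberg with a threshold of 0.05. Intervals use limma's moderated degrees of freedom. Only the groups compared entered a fit. For line and site, 1 model with both terms took 18 lymphomas and left out the tumour of unclear line. Pairs of helicase genes were tested with 100000 permutations (scipy 1.17.1). The limma step was tested on simulated data.

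The 35 genes and all other lists were chosen with earlier results of these data known. Values in every sample are given for genes chosen by rank of change and for those that missed the threshold against resting samples. From each other list the genes with the largest called changes are named. A gene of one of these lists is not reported here. Alternatives changed the pseudocount, filter, scaling, fit and samples, including leaving out each control sample.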

Additional observations from a re-analysis of the deposited data

Results flagged for a closer look

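A sample stood apart from the rest of its group, by the gap to its nearest neighbour as a share of the group's range, in 15 of 175 sets of a gene and a group. Chance gives about 1 in 20 such sets. The sets of 1 gene share their samples with those of all others, so they are not independent.

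The wt resting sample was the low one for Mcm3 (24.21 TPM), Mcm7 (35.49 TPM), Mcm10 (2.583 TPM) and Gins3 (2.653 TPM). It is the only one of the 4 resting samples without the transgene in the labels. Gm10800 took 3.646% of its TPM, the highest share of the 4, and haemoglobin genes 1.148%, the lowest. In 1 sample these traits cannot be told apart. The cr LPS sample was low for Mcm2 (68.53 TPM), Mcm10 (38.31 TPM) and Pold2 (57.93 TPM), and Gm10800 took 18.58% of its TPM. The part of that share was not tested.

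Among the 7 cr lymphomas the mesenteric tumour T35 was low for Mcm3 (46.18 TPM), Mcm5 (30.24 TPM), Cdc6 (7.847 TPM), Cdt1 (11.01 TPM), Lig1 (11.98 TPM) and Rrm1 (33.06 TPM). In this library 34.26% of TPM was Gm20594, and its part was not tested. The peripheral node tumour T2 was high among the 4 co lymphomas for Mcm4 (87.44 TPM). The lung tumour T5 was high among the 7 hv lymphomas for Tyms (141.6 TPM), with the next one at 43.54 TPM.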

How the results depend on the processing

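The count of genes called higher after LPS was 30 to 33 under every alternative run, and 32 without any 1 sample. The single lower call, E2f2, was absent with median-of-ratios scaling (0), with genotype as a replicate block (0) and in 6 of 8 fits that left out 1 sample (0 to 1). E2f2 had an adjusted p of 0.0912 with the block. Samples were not taken as paired by genotype, since resting and LPS deviations of the same genotype correlated over 0.1 in cr (0.222) and co (0.34), each with its own genotype as best match, but not in wt (0.058) and hv (0.063). With the block 3088 genes of all rose and 4162 fell, against 3026 and 3955 without it.

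Higher calls in lymphomas against resting samples numbered 19 to 32, and 22 to 26 without 1 resting sample, where those of all genes numbered 1360 to 1578. Against LPS, the lower calls numbered 2 without a filter, 10 with rescaling, 9 in 1 fit over all samples, 1 without wt samples, 3 without the tumour of unclear line, 3 with joined-name and 9 with separated-name lymphomas, 1 without libraries above 1% Gm10800 under either scaling, and 1 to 4 without 1 LPS sample. The higher calls there numbered 2 with joined-name lymphomas and 0 without libraries above 1% Gm10800. Lower calls of all genes against LPS numbered 510 to 1067 without 1 LPS sample, and 1103 with all samples. The cause of these changes was not tested. The Gm10800 alternatives were chosen after seeing the data. No result of any alternative changed direction among called values.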
